A study of Gallus gallus with 13 samples.

Results

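The genes described here make the working parts of protein synthesis: the aminoacyl-tRNA synthetases, which load each amino acid onto its tRNA, and the initiation and elongation factors, which bring ribosomes to messenger RNA and move them along it. They were taken from the array annotation by symbol, as every gene whose symbol begins with EIF or EEF or is that of an aminoacyl-tRNA synthetase of the pattern AARS, AARS1 or AARS2. The rule gave 83 genes on 154 probe sets, among 13008 genes with a probe set of a single symbol. All 83 passed the filter on low signal, which left 11498 genes on the array. Of the 83, 28 were synthetases, 16 classed by symbol as cytosolic and 12 as mitochondrial, and 55 were EIF or EEF genes. The 55 comprised 36 initiation factor genes, 7 kinases and binding proteins of initiation factors, 9 genes classed by symbol as elongation factors and 3 enzymes that modify elongation factors. Where a gene had several probe sets, the one of highest mean log2 signal was used.

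The cells were primary chicken embryo fibroblasts, connective tissue cells from White Leghorn embryos at day 10, in early passage (under 10) at 41.5 °C. The cycling group (3 arrays) was harvested in log-phase growth with 5% serum. Contact-inhibited cells (4 arrays) had reached full confluence and were given fresh medium with serum, serum-starved cells (3 arrays) were growing cells moved to medium lacking serum, and confluent and starved cells (3 arrays) lost their serum after reaching confluence. Each arrested group is compared with cycling cells.

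In vertebrate cells, eIF2 carries the initiator tRNA to the small ribosomal subunit and eIF2B recharges eIF2 with GTP, while eIF4 factors bring the messenger RNA by its cap and eIF3 holds the assembly together. Kinases that phosphorylate eIF2 slow initiation under stress, and eEF1 and eEF2 then drive elongation. Several cytosolic synthetases travel in 1 multisynthetase complex, whereas the enzymes with symbols ending in ARS2 serve the separate translation system of mitochondria. Synthetase genes are also known targets of ATF4, the transcription factor of the amino acid response.

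The values are probe set signals on a linear scale, and changes are differences of log2(signal + 16) with their standard error. "Rose", "fell", "higher" and "lower" are used of a gene where limma's two-sided test, adjusted by the Benjamini-Hochberg method over all 28270 probe sets tested, gave an adjusted p below 0.05. Single probe sets cannot be compared with each other in level. Signals are relative to the RNA of each culture, so they give a transcript's share of that RNA and not its amount per cell. The labels name biological replicates but no separate embryos, and the p-values therefore reflect only the spread over these arrays, whose number limits the precision. Median signal per array was 52.1 to 68.9. All 10 fibroblast markers were measured, with a summed signal of 89817 to 97435 in cycling, 95324 to 105156 in contact-inhibited, 102362 to 110297 in serum-starved and 104163 to 109294 in confluent and starved arrays. None of 3 epithelial markers passed the filter, and the summed signals of muscle, endothelial, blood and neural markers stayed at or below 159, 299, 544 and 338.

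Some arrays stood apart. Genes of the female-specific W chromosome, averaged over 22 probe sets, had a log2 level of 7.07 to 7.12 in the cycling group. Contact-inhibited replicates 2 to 4 had 7.19 to 7.30, whereas replicate 1 of that group had 6.28 and the starved arrays had 5.98 to 6.66. Cycling replicate 3 had an actin 3′ to 5′ signal ratio of 2.41, against 1.27 to 1.89 in the others. The part of these differences in the changes described was not tested. The leading counts are also given without cycling replicate 3 and contact-inhibited replicate 1. Every starved array lay below every cycling array in W-linked level, so leaving arrays out cannot tell this level apart from serum removal. None of the 83 genes lies on W, and NARS and TARS lie on Z, by the chicken RefSeq gene table, which matched 80 of them.

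Contact-inhibited cells had lower transcripts of most cytosolic synthetases than cycling cells. Of the 16, 13 fell and 1 rose, with a median log2 change of -0.68. The 55 EIF and EEF genes divided evenly, with 15 higher and 16 lower and a median of -0.03. Over all 28 synthetases 17 fell and 3 rose (5 without cycling replicate 3), with a median of -0.53. In the same comparison 16% of all probe sets were lower and 18.8% higher, and 2515 of 11498 genes were lower and 2147 higher with a median of 0.02. Of the 83 genes together 33 fell and 18 rose, with 17 lying wholly above and 33 wholly below the cycling arrays. Of all 11498 genes, 2355 lay wholly above and 2660 wholly below, so the 17 were near the share over all genes. Without cycling replicate 3 and contact-inhibited replicate 1, 30 fell and 23 rose, and 11 of the 16 cytosolic synthetases were lower. Of the 33 lower genes 25 remained called under each of 26 alternative settings, and of the 18 higher genes 7 did. With each array centred on its median, 11 genes were higher instead of 18.

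Fewer of these genes passed the test in serum-starved cells. Of the 83, 12 rose and 8 fell, where 10.1% of all probe sets were higher and 6.53% lower. Over all genes 1267 of 11498 were higher and 1117 (9.71%) lower, beside 14.5% and 9.64% of the 83. The number lower was thus near the share over all genes. The synthetases gave 2 higher and 1 lower with a median of -0.04, and the EIF and EEF genes 10 higher and 7 lower with a median of -0.02. These counts rested on single arrays. The number higher went to 7 without cycling replicate 3 or serum-starved replicate 1 and to 5 without serum-starved replicate 2, and the number lower to 3, 1 and 3 without cycling replicate 3, serum-starved replicate 3 and serum-starved replicate 2. It was also 4 without cycling replicate 2 and 5 without confluent and starved replicate 1 or 2. Only 4 of these 20 calls remained under each of 26 alternatives.

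Confluent and starved cells had 26 of the 83 genes lower and 17 higher than cycling cells, where 12.1% of all probe sets were lower and 17.5% higher. Over all genes 16.1% were lower and 18.6% higher, beside 31.3% and 20.5% of the 83. The number higher was thus near the share over all genes. Of the 28 synthetases 12 fell and 1 rose, with a median of -0.39. The cytosolic ones gave 9 lower and none higher, with a median of -0.55, and the EIF and EEF genes gave 14 lower and 16 higher with a median of -0.01. With cycling replicate 3 and contact-inhibited replicate 1 left out, 28 of the 83 were lower and 20 higher. With the W-linked level as a covariate 8 were lower, 3 of them synthetases and 5 EIF or EEF genes. The EIF and EEF genes gave 8 lower without cycling replicate 2 and 9 without confluent and starved replicate 1 or 2.

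By array, the median log2 level of the 28 synthetases relative to the cycling mean was -0.58, -0.39, -0.59 and -0.42 in the contact-inhibited arrays. It was 0.05, -0.01 and -0.10 in the serum-starved and -0.51, -0.38 and -0.32 in the confluent and starved arrays, against -0.09, -0.05 and 0.13 in cycling arrays. All confluent arrays, with or without serum, lay below all sparse ones. The median over the 55 EIF and EEF genes stayed between -0.05 and 0.05 in all 13 arrays. The median of the synthetases minus that of the factors was -0.50 for contact-inhibited, -0.02 for serum-starved and -0.39 for confluent and starved against cycling cells. The 3 comparisons share the cycling arrays.

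**Figure D1:**
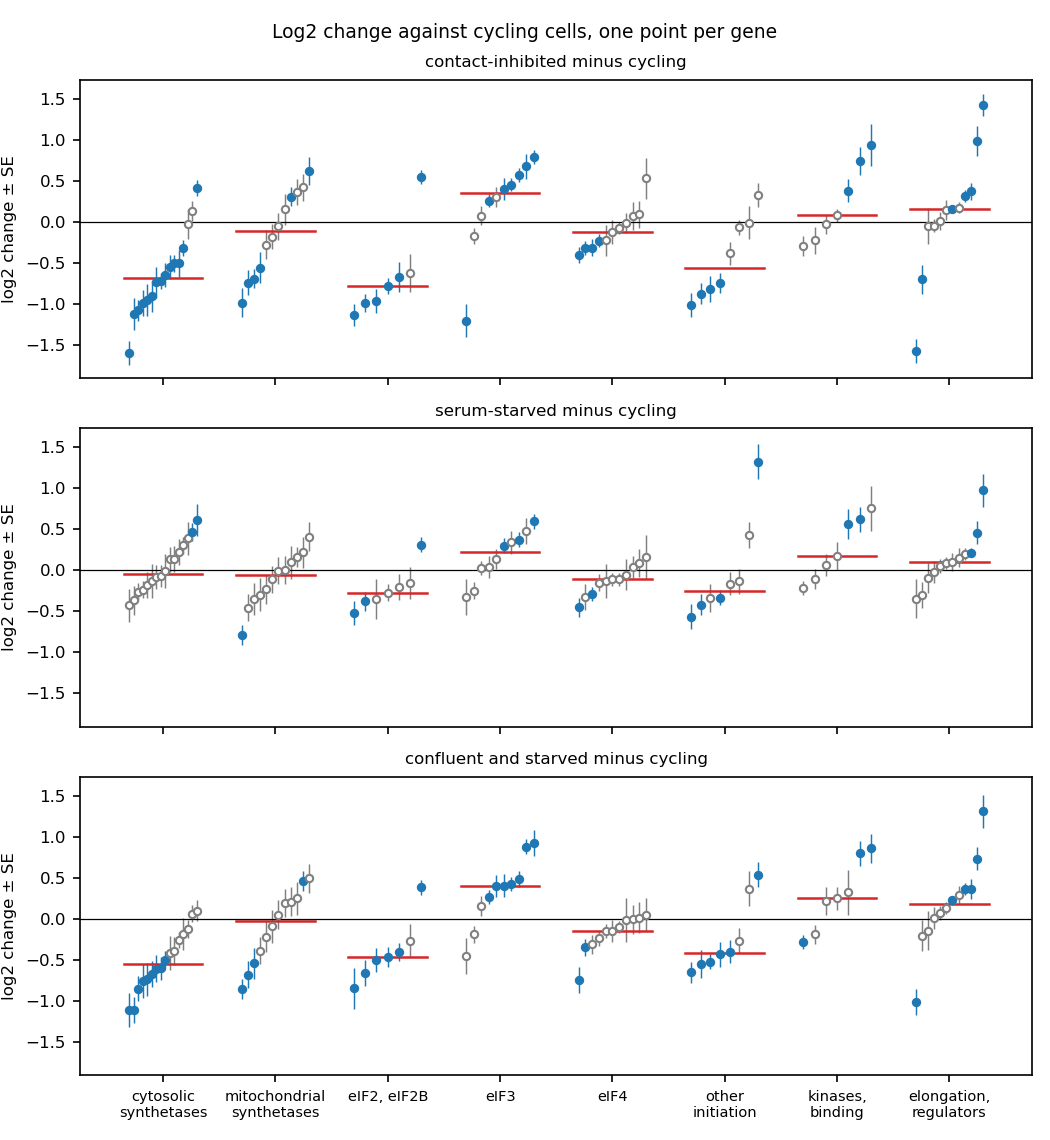
Log2 change of each of the 83 genes against cycling cells (vertical axis, error bars are standard errors) by role class (horizontal axis), for contact-inhibited, serum-starved and confluent and starved cells. Filled blue points passed the test, open grey points did not, and red lines are class medians, which for cytosolic synthetases were -0.68, -0.04 and -0.55.

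Of the 9 cytosolic synthetases outside the multisynthetase complex, 8 fell in contact-inhibited cells (88.9%, beside 16% of all probe sets). In confluent and starved cells 6 fell (66.7%, beside 12.1%). YARS, the tyrosyl-tRNA synthetase, had signals of 899, 1029.8 and 1250.1 in cycling, 309.6, 391, 321 and 334 in contact-inhibited, 1072, 856 and 854 in serum-starved and 415, 489 and 539.8 in confluent and starved cells. Its log2 change was -1.59 ± 0.15 in contact-inhibited (adjusted p 4.39e-06) and -1.11 ± 0.16 in confluent and starved cells (adjusted p 0.000202), and in both groups each array lay below each cycling array. In serum-starved cells the values overlapped with cycling ones, at -0.18 ± 0.16 (adjusted p 0.475). TARS, which charges threonine, had 8003, 7021 and 7460.0 in cycling, 2765, 3735, 3542 and 4289 in contact-inhibited, 7912, 7395 and 6066 in serum-starved and 4566, 4837 and 5374 in confluent and starved cells. Contact-inhibited arrays were lowest, with a change of -1.08 ± 0.13 (adjusted p 4.63e-05). AARS1, which charges alanine, gave 870.4, 1096 and 1480.5 in cycling, 415, 691, 628 and 601 in contact-inhibited, 1209, 905 and 979 in serum-starved and 672, 599.6 and 699 in confluent and starved cells. It fell by 0.95 ± 0.20 on the log2 scale in contact-inhibited (adjusted p 0.00208) and by 0.76 in confluent and starved cells (adjusted p 0.0147). The second call was lost without confluent and starved replicate 2 or cycling replicate 3 (adjusted p 0.0504 to 0.0574). CARS (-0.99 ± 0.15), HARS1 (-0.64 ± 0.14) and SARS1 (-0.55 ± 0.14), which charge cysteine, histidine and serine, were also lower in contact-inhibited cells, and kept the call under each of the 26 alternatives.

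GARS and WARS were the 2 synthetases higher in serum-starved cells. GARS, which charges glycine, had 3214, 3637 and 3151 in cycling, 1923, 2594, 2429.9 and 2482 in contact-inhibited, 4677, 4535 and 4646 in serum-starved and 3086, 2957 and 3124 in confluent and starved cells. All serum-starved arrays were above, and all contact-inhibited arrays below, the cycling ones, and the confluent and starved arrays lay just under them. The changes were -0.50 ± 0.10, 0.47 ± 0.11 and -0.12 ± 0.11 in contact-inhibited, serum-starved, and confluent and starved cells, with adjusted p of 0.00179, 0.00958 and 0.425. Averaging all its probe sets ended the contact-inhibited call. WARS, which charges tryptophan, had 1408, 1392 and 935 in cycling, 885, 1291, 1225 and 1495 in contact-inhibited, 2132, 1836 and 1695 in serum-starved and 982, 1039 and 1217 in confluent and starved cells. Serum-starved arrays were highest, at 0.61 ± 0.20 (adjusted p 0.048), but that call was lost without any of 9 single arrays (adjusted p 0.0549 to 0.159). Its contact-inhibited change was -0.02 ± 0.18 (adjusted p 0.934).

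Of the 7 synthetases of the multisynthetase complex on the array, 5 fell and 1 rose in contact-inhibited cells. These were 71.4% and 14.3%, beside 16% and 18.8% of all probe sets. None passed the test in serum-starved cells, and 3 fell in confluent and starved cells (42.9%, beside 12.1%). QARS, the glutaminyl-tRNA synthetase, chosen for array values after its change was seen, had 1194, 1464 and 1990.2 in cycling, 479, 896, 709 and 734 in contact-inhibited, 1432, 1508 and 1578 in serum-starved and 675, 664 and 740.2 in confluent and starved cells. Every contact-inhibited and every confluent and starved array lay below the cycling ones, with changes of -1.12 ± 0.19 and -1.11 ± 0.21 (adjusted p 0.000626 and 0.00143). Another probe set of QARS fell by 0.33 ± 0.11 in contact-inhibited cells (adjusted p 0.0299) and the third had 0.06 ± 0.22 (adjusted p 0.865), so its probe sets disagreed in size. In confluent and starved cells neither of the others was called, and the changes of the QARS probe sets ran from -1.11 to 0.24. KARS, the lysine enzyme, had 4494, 4508 and 4962 in cycling, 2446, 3138, 2760.1 and 2975 in contact-inhibited, 3946, 4176 and 3560.4 in serum-starved and 3064, 3228 and 3587 in confluent and starved cells. It was lower in contact-inhibited (-0.72 ± 0.10, adjusted p 0.000117) and in confluent and starved cells (-0.50 ± 0.11, adjusted p 0.00348). EPRS, a fused enzyme for glutamate and proline, went the other way in contact-inhibited cells. It had 2472, 2904 and 2741 in cycling, 3188, 3875, 3730.1 and 3665 in contact-inhibited, 3740.1, 3112 and 3207 in serum-starved and 2773, 2855 and 2823 in confluent and starved cells. Each contact-inhibited array exceeded the cycling ones, at 0.42 ± 0.10 (adjusted p 0.00433). A further EPRS probe set gave 0.70 ± 0.18 (adjusted p 0.00853). IARS, the isoleucine enzyme, changed by -0.74 ± 0.19 (adjusted p 0.00882), a call lost when its probe sets were averaged.

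Of the 12 mitochondrial synthetases, 4 were lower and 2 higher in contact-inhibited cells (33.3% and 16.7%, beside 16% and 18.8% of all probe sets). In serum-starved cells 1 was lower (8.33%, beside 6.53%), and in confluent and starved cells 3 were lower and 1 higher (25% and 8.33%, beside 12.1% and 17.5%). The shares higher in contact-inhibited and lower in serum-starved cells thus lay near those of all probe sets. Among all genes 21.9% were lower in contact-inhibited and 16.1% in confluent and starved cells. The 4 and 3 lower genes of the 12 were thus not far from the shares over all genes. Median changes of the 12 were -0.11, -0.06 and -0.02. YARS2, the tyrosine enzyme of mitochondria, had 483, 522 and 468 in cycling, 301, 326, 261 and 304 in contact-inhibited, 298, 267 and 268 in serum-starved and 249, 265 and 275 in confluent and starved cells. All 10 arrested arrays were below all 3 cycling ones, and the changes of -0.69 ± 0.12, -0.79 ± 0.12 and -0.86 ± 0.12 passed in each group (adjusted p 0.000464, 0.000759 and 0.000209) and under each of 26 alternatives. MARS2, which charges methionine, gave 206, 235 and 362 in cycling, 102, 142, 111 and 145 in contact-inhibited, 216, 202 and 186 in serum-starved and 170.3, 177 and 172 in confluent and starved cells. The contact-inhibited arrays were the lowest, at -0.98 ± 0.18 (adjusted p 0.000872). Its change in confluent and starved cells (-0.55 ± 0.19, adjusted p 0.0453) lost its call without any of 10 single arrays (adjusted p 0.0512 to 0.167). EARS2, which charges glutamate, had 107, 120.1 and 176 in cycling, 69.4, 61.5, 74.4 and 86.6 in contact-inhibited, 86.6, 98.8 and 90.5 in serum-starved and 73.7, 80.0 and 73.8 in confluent and starved cells. It fell in contact-inhibited (-0.74 ± 0.15, adjusted p 0.00236) and in confluent and starved cells (-0.69 ± 0.17, adjusted p 0.00741).

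**Figure D2:**
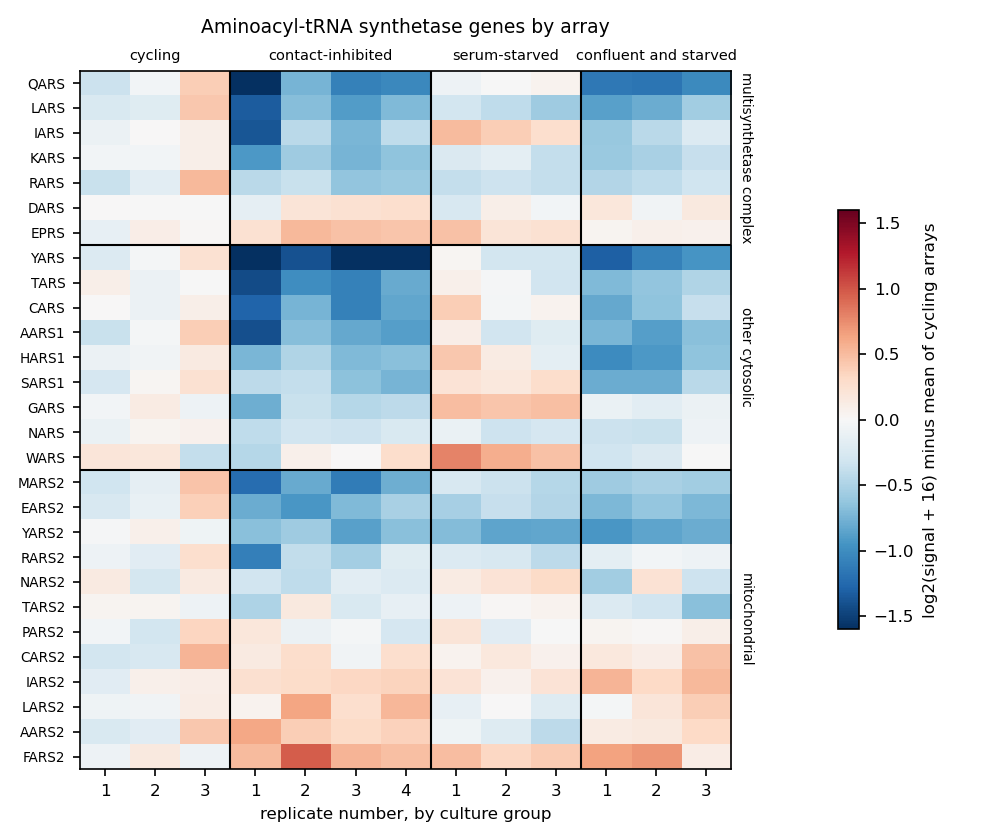
Heat map of 28 synthetase genes (rows, by location and ordered by their contact-inhibited level) in 13 arrays (columns, by group and replicate number). Colour is log2(signal + 16) minus the mean of the cycling arrays, blue for lower and red for higher, and YARS and QARS are blue in all 7 confluent arrays while YARS2 is blue in all 10 arrested ones.

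Among initiation factors, the genes of eIF2 and of its exchange factor eIF2B were mostly lower in contact-inhibited cells, with 5 of 7 lower and 1 higher. Over all probe sets 16% were lower and 18.8% higher there. The count was 2 lower and 1 higher in serum-starved cells, beside 6.53% and 10.1% of all probe sets. In confluent and starved cells it was 5 lower and 1 higher, beside 12.1% and 17.5%. EIF2S1 encodes the alpha subunit of eIF2, on which the stress kinases act. It had 3128, 3308 and 3484 in cycling, 1390.2, 1661, 1712 and 1891 in contact-inhibited, 2884, 2403 and 2362 in serum-starved and 2424, 2335 and 2396 in confluent and starved cells. Every arrested array lay below every cycling array. The changes were -0.99 ± 0.11 in contact-inhibited and -0.47 ± 0.12 in confluent and starved cells (adjusted p 1.91e-05 and 0.00922). In serum-starved cells it was -0.38 ± 0.12 (adjusted p 0.0426), and that call was lost without any of 10 single arrays (adjusted p 0.0551 to 0.16). EIF2B3, the gamma subunit of eIF2B, gave 1026, 1126 and 1464 in cycling, 571, 504, 514 and 552 in contact-inhibited, 935, 826 and 730.4 in serum-starved and 884, 759 and 869 in confluent and starved cells. It fell by 1.13 ± 0.14 in contact-inhibited cells (adjusted p 3.67e-05), whereas its second probe set had 0.26 ± 0.15 (adjusted p 0.206). The smaller falls of -0.52 ± 0.15 and -0.50 ± 0.15 in the starved groups (adjusted p 0.0264 and 0.0189) depended on single arrays. The first was lost without cycling replicate 3, serum-starved replicate 2 or serum-starved replicate 3 (adjusted p 0.0742 to 0.124) and the second without confluent and starved replicate 2 or cycling replicate 3 (adjusted p 0.0694 to 0.0806). The second EIF2B3 probe set had 0.41 in serum-starved and 0.39 in confluent and starved cells, neither called. EIF2B2, the beta subunit, was lower in contact-inhibited cells (-0.78 ± 0.10, adjusted p 4.95e-05). EIF2S3, the gamma subunit that binds the initiator tRNA, was instead higher by 0.55 ± 0.09 in contact-inhibited cells (adjusted p 0.000261). Its other probe set had -0.42 ± 0.21 (adjusted p 0.132), and the call was lost when both were averaged.

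Most of the called eIF3 genes were higher in arrested cells. Of 10 measured subunits, 6 rose and 1 fell in contact-inhibited cells (60% and 10%, beside 18.8% and 16% of all probe sets). In serum-starved cells 3 rose (30%, beside 10.1%) and in confluent and starved cells 7 rose (70%, beside 17.5%). The median level over the 10 was above that of the cycling mean in all 10 arrested arrays, between 0.16 and 0.56 on the log2 scale. EIF3H, a subunit of the outer part of the complex, had 4909, 4947 and 4101 in cycling, 7166, 8627, 7968 and 8524 in contact-inhibited, 7007, 7575 and 6529.6 in serum-starved and 8237, 8749.6 and 8604 in confluent and starved cells. No arrested array overlapped the cycling ones, and the changes were 0.79 ± 0.09, 0.60 ± 0.09 and 0.88 ± 0.09 (adjusted p 1.99e-05, 0.000806 and 2.1e-05). EIF3M and EIF3F, 2 further subunits, rose by 0.68 ± 0.15 and 0.57 ± 0.09 in contact-inhibited cells. EIF3J, a loosely bound subunit, was the member that fell. Chosen after its values were seen, it had 1761, 1959.5 and 1522 in cycling, 458, 864, 897 and 876 in contact-inhibited, 1593, 1205 and 1382 in serum-starved and 1364, 1281 and 1148 in confluent and starved cells. Contact-inhibited arrays were lowest and replicate 1 the lowest of them, with a change of -1.20 ± 0.20 (adjusted p 0.00056). Its next probe set had 0.13 ± 0.14 (adjusted p 0.50) and its dimmest -0.59 ± 0.21 (adjusted p 0.0381). These counts varied with single arrays. In confluent and starved cells 4 eIF3 genes remained higher without cycling replicate 1 or confluent and starved replicate 2 or 3. In serum-starved cells 1 did without serum-starved replicate 1 or 2, and with arrays centred on their median.

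Some of the eIF4 genes were lower, a class that includes the factors that recognise the cap and unwind the messenger. By the probe sets used, none of 11 rose against cycling cells in any group, though another probe set of EIF4G2 was called higher in each group. In contact-inhibited cells 4 fell (36.4%, beside 16% of all probe sets and 21.9% of all genes). In serum-starved cells 2 fell (18.2%, beside 6.53% and 9.71%). In confluent and starved cells 2 fell (18.2%, beside 12.1% of all probe sets and 16.1% of all genes). Named after their values were seen, these were EIF4A3, EIF4E2, EIF4G2 and EIF4H in contact-inhibited cells. They were EIF4A3 and EIF4E2 in serum-starved cells, and EIF4G1 and EIF4G2 in confluent and starved cells. EIF4E, the cap-binding protein, had 1257, 1388 and 981 in cycling, 688, 1026, 1285 and 1200.2 in contact-inhibited, 1195, 1044 and 1049 in serum-starved and 1424, 1204 and 1109 in confluent and starved cells. The groups overlapped and none of its changes passed (-0.22 ± 0.19, -0.13 ± 0.21 and 0.05 ± 0.21, adjusted p 0.401, 0.724 and 0.881). EIF4A2, an RNA helicase of the same complex, gave 15553, 15424 and 12463 in cycling, 14105, 14054, 13278 and 13496 in contact-inhibited, 13969.5, 13306 and 12856 in serum-starved and 12868, 13772 and 13644 in confluent and starved cells. Its changes of -0.07 ± 0.07, -0.11 ± 0.08 and -0.10 ± 0.08 did not pass (adjusted p 0.505, 0.392 and 0.357). EIF4G1, the scaffold that joins them, had 126, 138 and 148 in cycling, 149, 135, 110.1 and 109 in contact-inhibited, 112, 91.3 and 115 in serum-starved and 88.3, 75.0 and 63.9 in confluent and starved cells. The confluent and starved arrays were lowest, at -0.75 ± 0.16 (adjusted p 0.00314), against -0.12 ± 0.15 and -0.33 ± 0.16 in the others (adjusted p 0.574 and 0.179). The direct comparison of confluent cells with and without serum gave -0.63 ± 0.15 (adjusted p 0.00995), lost without confluent and starved replicate 3 (adjusted p 0.0533). EIF4G2, a relative of EIF4G1 named after its values were seen, changed by -0.40 ± 0.09 in contact-inhibited cells (adjusted p 0.00471), whereas a dimmer probe set of it rose by 1.85 ± 0.31 (adjusted p 0.000507). It was the 1 gene of the 83 with probe sets called in opposite directions, in contact-inhibited and in confluent and starved cells. A probe set other than the one used was called higher in serum-starved cells too. The highest changes among the EIF4G2 probe sets were 1.81 in serum-starved and 2.21 in confluent and starved cells.

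The remaining initiation factors were 8 genes of varied roles, among them factors that scan for the start codon, join the subunits or keep them apart. They gave 4 lower in contact-inhibited cells (50%, beside 16% of all probe sets). In serum-starved cells 3 were lower and 1 higher (37.5% and 12.5%, beside 6.53% and 10.1%). In confluent and starved cells 5 were lower and 1 higher (62.5% and 12.5%, beside 12.1% and 17.5%). EIF6, which holds the large subunit apart from the small one, had 1819.6, 1971 and 2386 in cycling, 912, 1176, 1119 and 1259.8 in contact-inhibited, 2028, 1716 and 1746 in serum-starved and 1612, 1414 and 1612 in confluent and starved cells. All contact-inhibited arrays were below the cycling ones, at -0.87 ± 0.13 (adjusted p 0.000205). EIF5 activates the GTPase of eIF2. Chosen after its values were seen, it had 6525, 6925 and 7431 in cycling, 2430.5, 3900.2, 3698 and 4001 in contact-inhibited, 6663, 6226 and 6153 in serum-starved and 5224, 6119 and 6003 in confluent and starved cells. Contact-inhibited arrays were the lowest of the 13, at -1.01 ± 0.14 against cycling cells (adjusted p 0.000135). Against contact-inhibited cells EIF5 was higher in serum-starved (0.88 ± 0.14, adjusted p 0.000765) and in confluent and starved cells (0.74 ± 0.14, adjusted p 0.00301). EIF5B, which joins the large ribosomal subunit, was also chosen after its values were seen and had 827, 892 and 639 in cycling, 638, 884, 744 and 862 in contact-inhibited, 2727, 1427 and 1977 in serum-starved and 881, 981 and 1181 in confluent and starved cells. The serum-starved arrays were the highest 3 of the 13, at 1.33 ± 0.22 against cycling cells (adjusted p 0.00101), and the contact-inhibited change was -0.01 ± 0.20 (adjusted p 0.988). Its 2 other probe sets were higher in serum-starved cells too, by 2.00 ± 0.43 and 1.64 ± 0.35 (adjusted p 0.00640 and 0.00591).

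**Figure D3:**
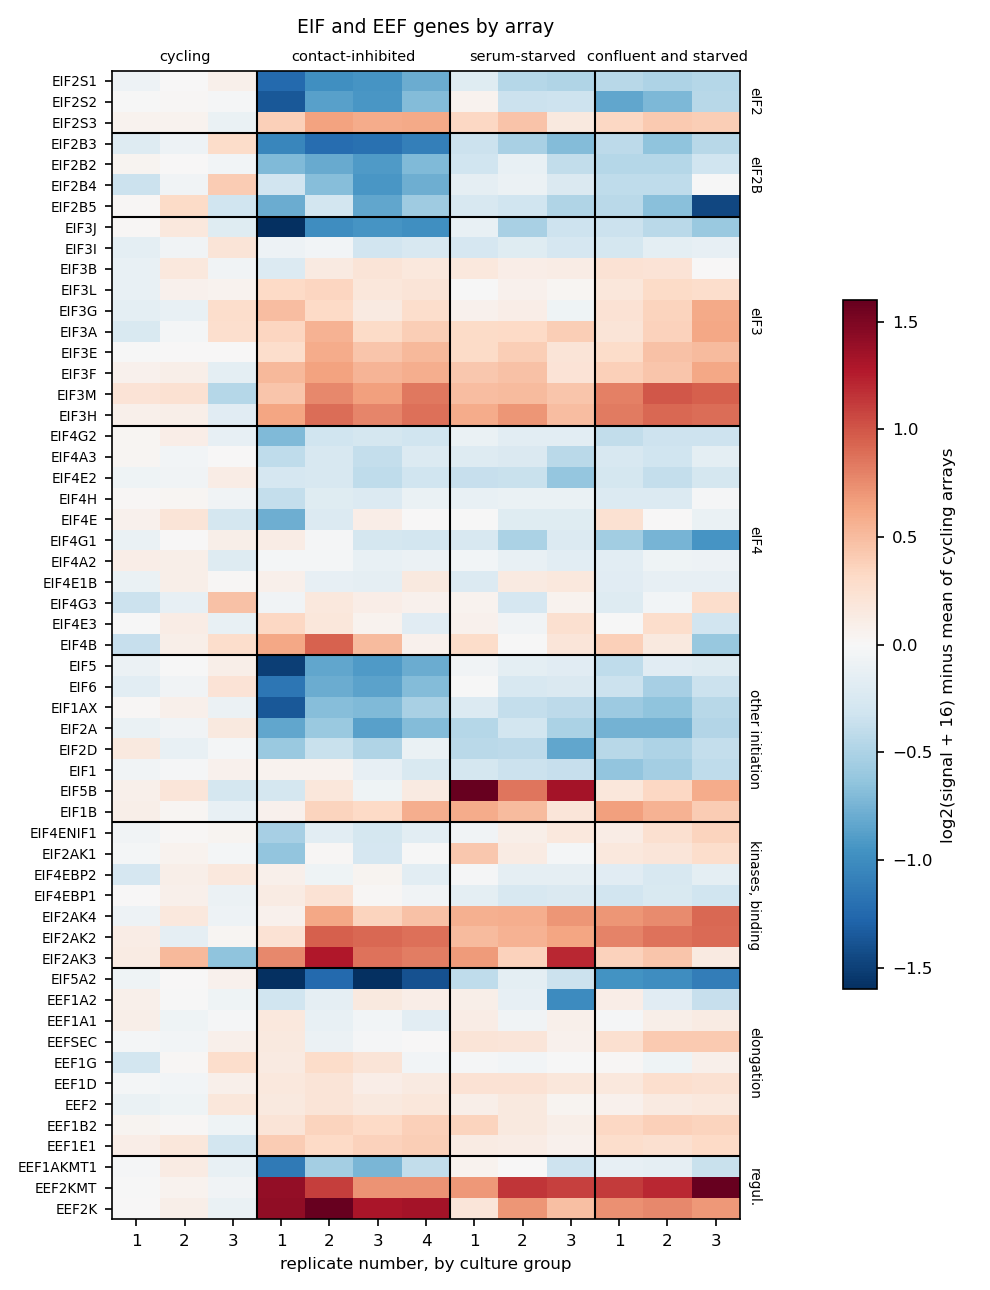
Heat map of 55 EIF and EEF genes (rows, by complex and ordered by their contact-inhibited level) in 13 arrays (columns, by group and replicate number). Colour is log2(signal + 16) minus the mean of the cycling arrays, red for higher and blue for lower, with EIF2S1 blue and EIF3H red in all 10 arrested arrays.

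Of the 4 eIF2 kinases, 3 rose in contact-inhibited cells, 2 in serum-starved and 2 in confluent and starved cells, and none fell. These were 75%, 50% and 50%, beside 18.8%, 10.1% and 17.5% of all probe sets. EIF2AK2, known as PKR, which senses double-stranded RNA, had 138, 112 and 129 in cycling, 149.6, 258, 252 and 245 in contact-inhibited, 185, 192 and 203 in serum-starved and 229, 243 and 249 in confluent and starved cells. It rose by 0.75 ± 0.17 in contact-inhibited and 0.86 ± 0.18 in confluent and starved cells (adjusted p 0.00379 and 0.00307). The serum-starved rise of 0.56 ± 0.18 (adjusted p 0.0473) was lost without any of 12 single arrays (adjusted p 0.0525 to 0.147). EIF2AK3, known as PERK, the kinase of endoplasmic reticulum stress, gave 81.3, 111 and 40.9 in cycling, 136, 199, 146 and 142 in contact-inhibited, 127, 99.2 and 190.2 in serum-starved and 99.0, 105 and 82.0 in confluent and starved cells. Contact-inhibited cells were higher by 0.94 ± 0.26 (adjusted p 0.012), and the changes of 0.76 ± 0.27 and 0.32 ± 0.27 in the starved groups did not pass (adjusted p 0.0773 and 0.41). EIF2AK4, known as GCN2, the sensor of uncharged tRNA, had 343, 412 and 343 in cycling, 384, 569, 471 and 512 in contact-inhibited, 551, 555 and 604 in serum-starved and 606, 626 and 706 in confluent and starved cells. The starved arrays were above all cycling ones, with rises of 0.62 ± 0.15 and 0.80 ± 0.15 (adjusted p 0.0119 and 0.00144). The first was lost without serum-starved replicate 3 (adjusted p 0.0555), and the contact-inhibited rise of 0.38 ± 0.14 (adjusted p 0.0481) without any of 11 single arrays (adjusted p 0.0537 to 0.131). EIF4EBP1, a repressor that binds the cap-binding protein, had 4324, 4577 and 4053 in cycling, 4741, 5045, 4372 and 4141 in contact-inhibited, 3852, 3609 and 3669 in serum-starved and 3497, 3625 and 3466 in confluent and starved cells. Its changes against cycling cells were 0.08 ± 0.08, -0.22 ± 0.09 and -0.29 ± 0.09 (adjusted p 0.483, 0.111 and 0.0238). The last passed, and was lost without confluent and starved replicate 1, confluent and starved replicate 2, confluent and starved replicate 3, cycling replicate 1 or cycling replicate 2 (adjusted p 0.0503 to 0.0849).

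Of 9 genes classed by symbol as elongation factors, 3 were higher and 1 lower in contact-inhibited cells (33.3% and 11.1%, beside 18.8% and 16% of all probe sets). EEF1E1, 1 of the 3 higher (0.37), encodes a scaffold protein of the multisynthetase complex despite its symbol. In serum-starved cells 1 was higher (11.1%, beside 10.1%). In confluent and starved cells 3 were higher and 1 lower (33.3% and 11.1%, beside 17.5% and 12.1%). EIF5A2, the one that fell, is an isoform of the hypusine-bearing factor that helps ribosomes past difficult stretches. It had 2339, 2482 and 2575 in cycling, 613, 1028, 769 and 926 in contact-inhibited, 1859, 2206 and 1945 in serum-starved and 1259, 1230.4 and 1131 in confluent and starved cells. Every contact-inhibited and every confluent and starved array was below every cycling one, with changes of -1.57 ± 0.15 and -1.02 ± 0.16 (adjusted p 5.06e-06 and 0.000389), both kept under each of 26 alternatives. The serum-starved arrays lay below the cycling ones as well, but their change of -0.30 ± 0.16 did not pass (adjusted p 0.228). EEF1A1, which delivers charged tRNAs to the ribosome, had 15372, 13625 and 14110.4 in cycling, 16164, 13160.2, 13897 and 12739 in contact-inhibited, 15551, 13834 and 15247 in serum-starved and 14109, 15249 and 15718 in confluent and starved cells. The groups overlapped, and its changes of -0.04 ± 0.08, 0.05 ± 0.09 and 0.06 ± 0.09 did not pass (adjusted p 0.728, 0.747 and 0.618). EEF1A2, its muscle and nerve isoform in mammals, gave 41.1, 37.9 and 35.6 in cycling, 27.6, 32.9, 44.5 and 42.6 in contact-inhibited, 41.7, 33.5 and 11.1 in serum-starved and 42.5, 31.7 and 26.1 in confluent and starved cells. None of its changes passed (-0.05 ± 0.22, -0.35 ± 0.24 and -0.15 ± 0.24, adjusted p 0.895, 0.355 and 0.682). EEF2, the translocase, had 9721, 9929 and 11820.1 in cycling, 11646, 12050.1, 11649 and 11892 in contact-inhibited, 11107, 11618 and 10766 in serum-starved and 11005, 11567 and 11779 in confluent and starved cells. Its changes of 0.18 ± 0.07, 0.09 ± 0.07 and 0.13 ± 0.07 did not pass either (adjusted p 0.0601, 0.419 and 0.195).

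Among the nucleotide exchange subunits of eEF1, EEF1B2 and EEF1D rose in some comparisons. EEF1B2, the beta subunit, had 8327, 8150.4 and 7683 in cycling, 9296, 10318, 10067 and 10533 in contact-inhibited, 10276, 8979.9 and 8615 in serum-starved and 10142, 10484 and 10327 in confluent and starved cells. It was higher by 0.32 ± 0.07 in contact-inhibited and 0.36 ± 0.07 in confluent and starved cells (adjusted p 0.00325 and 0.00306), and its serum-starved change of 0.20 ± 0.07 did not pass (adjusted p 0.0839). EEF1D, the delta subunit, gave 13013, 12979 and 14073 in cycling, 15044, 15453, 14349 and 14747 in contact-inhibited, 15703, 15637 and 15142 in serum-starved and 14941, 16115 and 15773 in confluent and starved cells. Its rises were small, at 0.16 ± 0.05, 0.21 ± 0.06 and 0.23 ± 0.06 (adjusted p 0.0293, 0.0171 and 0.008). The first was lost without contact-inhibited replicate 2, cycling replicate 1 or cycling replicate 2 (adjusted p 0.0798 to 0.105) and the second without cycling replicate 1, cycling replicate 2 or serum-starved replicate 2 (adjusted p 0.0575 to 0.0596). EEF1G, the gamma subunit, named after its values were seen, had changes of 0.15 ± 0.13, -0.02 ± 0.13 and 0.01 ± 0.13 that did not pass (adjusted p 0.394, 0.927 and 0.966).

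Of the enzymes that modify elongation factors, EEF2KMT was higher and EEF1AKMT1 lower in contact-inhibited cells. EEF2K, the kinase that inhibits eEF2, had 14.4, 16.4 and 12.3 in cycling, 65.3, 80.9, 58.8 and 60.2 in contact-inhibited, 18.7, 33.6 and 26.2 in serum-starved and 34.4, 35.6 and 33.2 in confluent and starved cells. All arrested arrays were higher than the cycling arrays. The cycling mean of 14.4 lay under the filter signal of 22.7, so the gene passed the filter through the arrested arrays, and its differences from cycling cells are a description with no test. They were 1.43, 0.46 and 0.73 on the log2(signal + 16) scale, the first running from 0.73 to 2.13 over the alternatives, among them other offsets. EEF2K is 1 of the genes counted as higher in each group above. EEF2KMT, which methylates eEF2, had 261, 274 and 253 in cycling, 725, 585, 441 and 443 in contact-inhibited, 433, 598 and 579 in serum-starved and 590.0, 625 and 832 in confluent and starved cells. It rose by 0.99 ± 0.19, 0.97 ± 0.20 and 1.31 ± 0.20 (adjusted p 0.00123, 0.00514 and 0.00035), with every arrested array above the cycling ones. EEF1AKMT1, which methylates eEF1A, gave 288, 319.9 and 268 in cycling, 125, 194, 168 and 219 in contact-inhibited, 303, 293 and 228 in serum-starved and 265, 262 and 225 in confluent and starved cells. It was lower in contact-inhibited cells by the test (-0.70 ± 0.17, adjusted p 0.0067).

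**Figure D4:**
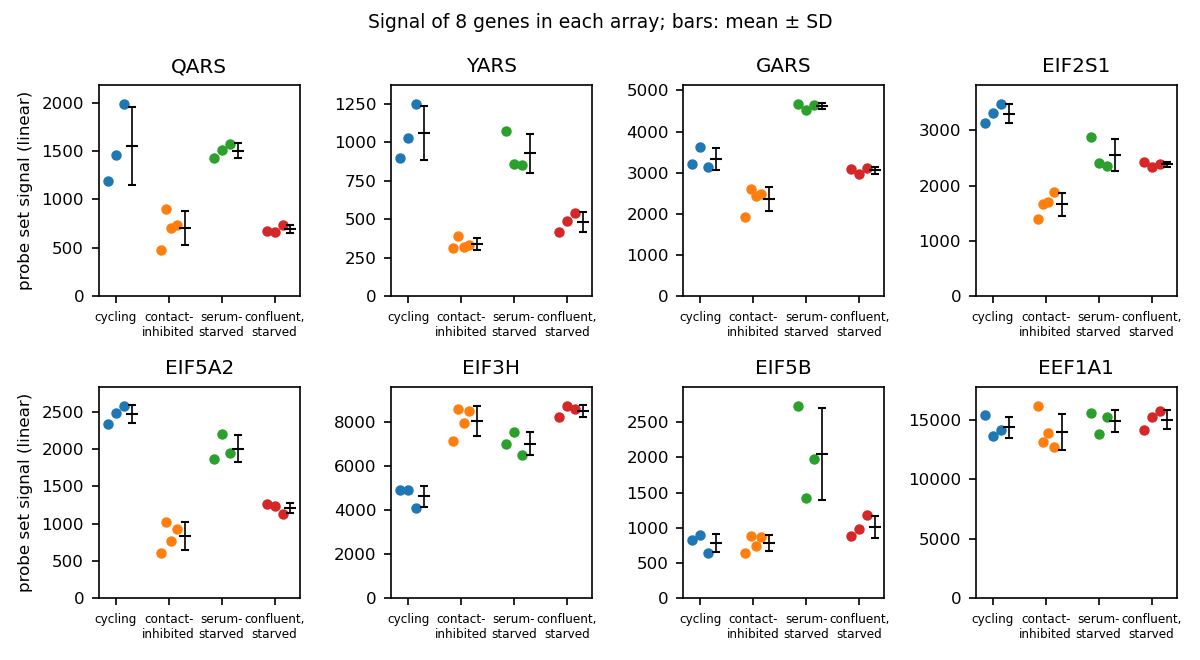
Signal on a linear scale from 0 (vertical axis) of 8 genes in each array by group (horizontal axis, points are arrays, bars are the mean ± SD). QARS, YARS and EIF5A2 were lower in both confluent groups than in cycling cells, GARS and EIF5B were highest in serum-starved cells, and EEF1A1 overlapped between the groups.

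Serum-starved cells had higher levels than contact-inhibited cells for 12 synthetases and 11 EIF or EEF genes. Of 16 cytosolic synthetases 11 were higher and none lower, with a median of 0.78, and of the 12 mitochondrial 1 was higher and 2 lower. The EIF and EEF genes gave 11 higher and 3 lower with a median of -0.01. In all, 23 of the 83 were higher and 5 lower, where 11.8% of all probe sets were higher and 7.50% lower. YARS (1.41 ± 0.15), EIF5B (1.33 ± 0.20), EIF5A2 (1.27 ± 0.15), IARS (1.13 ± 0.19), CARS (1.12 ± 0.15) and QARS (1.11 ± 0.19) had the highest changes among the called genes, and 18 of the 23 kept the call under each alternative. EEF2K was lower, by -0.97 ± 0.13 (adjusted p 0.000233), as were the mitochondrial AARS2 (-0.65 ± 0.17) and LARS2 (-0.48 ± 0.16). The 5 lower genes were not stable. With cycling replicate 3 and contact-inhibited replicate 1 both left out 11 were lower. Without serum-starved replicate 3 there was 1, and without contact-inhibited replicate 2 there were 2. The count was 3 without cycling replicate 1 or 2, contact-inhibited replicate 3, serum-starved replicate 1 or 2, or confluent and starved replicate 2.

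Confluent cells were also compared with and without serum. Of the 83 genes in confluent and starved cells, 12 were higher and 5 lower than in contact-inhibited cells, where 10.6% of all probe sets were higher and 6.59% lower. Over all genes 13.5% were higher and 7.34% lower, beside 14.5% and 6.02% of the 83. Both counts were thus near the shares over all genes. The synthetases gave 3 higher and 1 lower with a median of 0.07. EIF5 (0.74 ± 0.14) and EIF3J (0.74 ± 0.20) had the highest changes and EEF2K (-0.70 ± 0.13) and EIF4G1 (-0.63 ± 0.15) the lowest. EIF1, which guards start codon choice, was lower as well (-0.46 ± 0.09, adjusted p 0.00273). The number higher was 6 without contact-inhibited replicate 3 or confluent and starved replicate 2 or 3, and 7 without confluent and starved replicate 1. The number lower was 3 without confluent and starved replicate 3.

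Against serum-starved cells, confluent and starved cells had 6 of the 83 genes lower and none higher, where 0.478% of all probe sets were lower and 0.485% higher. All 6 were cytosolic synthetases, namely QARS (-1.10 ± 0.21, adjusted p 0.026), HARS1 (-0.99 ± 0.15, adjusted p 0.0108), YARS (-0.92 ± 0.16, adjusted p 0.0166), SARS1 (-0.90 ± 0.15, adjusted p 0.0166), CARS (-0.75 ± 0.16, adjusted p 0.0498) and GARS (-0.59 ± 0.11, adjusted p 0.023). The median over the 16 was -0.61, and 15 of them had a negative change. Few calls were made in this comparison at all, with 74 of 11498 genes lower and 94 higher, and each of the 6 calls was lost in at least 1 alternative. None remained without confluent and starved replicate 1 or 2. Then 3 did without confluent and starved replicate 3, 1 without serum-starved replicate 1 and 2 without serum-starved replicate 2 or 3, while 11 were lower without contact-inhibited replicate 1. The log2 changes kept their sign but varied in size over the alternatives, from -1.17 to -0.34 for QARS and -1.01 to -0.60 for YARS.

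The interaction, the effect of serum removal in confluent minus that in sparse cells, passed for 7 genes above and 6 below 0, where 5.96% of all probe sets were above and 4.85% below. Over all genes 8.87% were above and 5.33% below, beside 8.43% and 7.23% of the 83. Both counts thus lay near the shares over all genes. The interaction reached 1.15 ± 0.20 for EIF2B3, 1.07 ± 0.30 for EIF3J and 0.90 ± 0.16 for EIF2S1 (adjusted p 0.00287, 0.0372 and 0.0034). Serum removal changed EIF2B3 by -0.52 in sparse and 0.63 in confluent cells, EIF3J by -0.32 (not called) and 0.74, and EIF2S1 by -0.38 and 0.52. The second EIF2B3 probe set did not share this pattern. Against cycling cells it had 0.26 in contact-inhibited, 0.41 in serum-starved and 0.39 in confluent and starved cells, none called. The EIF3J probe sets ran from -0.32 to 0.72 in serum-starved cells, with 1 of the others called higher. On the other side lay EIF2AK3 (-1.37 ± 0.37) and EPRS (-0.66 ± 0.14), with adjusted p of 0.0324 and 0.00959. EEF2K, whose cycling signal was under the filter, had -1.16 and is 1 of the 6 below 0. Among synthetases EPRS and YARS2 (0.62 ± 0.17) were the 2 that passed, and the median over all 28 was 0.02. The 6 below 0 became 10 without contact-inhibited replicate 1, 3 without contact-inhibited replicate 2 or 3 and 2 without confluent and starved replicate 1. The 7 above became 4 without serum-starved replicate 3 or confluent and starved replicate 1, and 3 without confluent and starved replicate 2.

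A wider list of 59 genes that work with these, among them synthetase partners, release factors and regulators of the mTOR and ATF4 pathways, had 43 genes tested. In contact-inhibited cells 7 of these were higher and 11 lower (16.3% and 25.6%, beside 18.8% and 16% of all probe sets). In serum-starved cells 5 were higher and 6 lower (11.6% and 14.0%, beside 10.1% and 6.53%). In confluent and starved cells 10 were higher and 8 lower (23.3% and 18.6%, beside 17.5% and 12.1%). The shares higher thus lay near those of all probe sets in the first 2 groups. Over all genes 21.9% were lower in contact-inhibited, 9.71% in serum-starved and 16.1% in confluent and starved cells. The shares lower in contact-inhibited and in confluent and starved cells were thus not far from those over all genes. FARSB, the beta subunit of the phenylalanine enzyme, had mean signals of 853 ± 159 in cycling, 252 ± 29.7 in contact-inhibited, 543 ± 82.2 in serum-starved and 459 ± 33.1 in confluent and starved cells (mean ± SD). It fell by 1.69 ± 0.15 in contact-inhibited cells (adjusted p 3.31e-06). Its partner FARSA was lower by -0.70 ± 0.13 (adjusted p 0.00127). AIMP2 and AIMP1, which are among the scaffold proteins of the multisynthetase complex, were lower there too. Their changes were -1.43 ± 0.14 and -0.82 ± 0.18 (adjusted p 5.75e-06 and 0.00373). EEF1E1, a further scaffold protein of that complex counted above among the elongation factors, was instead higher there, by 0.37. Each contact-inhibited array of EEF1E1 lay above each cycling array. In confluent and starved cells AIMP2 stayed lower (-1.28 ± 0.15) and AIMP1 did not pass (-0.21 ± 0.20, adjusted p 0.445). ETF1, the release factor, fell by 0.93 in contact-inhibited cells (adjusted p 6.56e-06). DDIT4, an inhibitor of mTOR complex 1, and RICTOR, a subunit of mTOR complex 2, rose by 0.72 ± 0.10 and 0.89 ± 0.14 (adjusted p 0.000102 and 0.000239). ATF4 had mean signals of 3534 ± 314, 1639 ± 548, 4043 ± 547 and 3660.3 ± 149.5 in cycling, contact-inhibited, serum-starved, and confluent and starved cells. The contact-inhibited mean of ATF4 was the lowest, at 1639 against 3534 in cycling cells. ATF4 was higher in serum-starved than in contact-inhibited cells by 1.34 ± 0.18 (adjusted p 0.000231). Its changes against cycling cells in the starved groups were 0.19 ± 0.20 and 0.05 ± 0.20 (adjusted p 0.569 and 0.867).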

How the data were processed

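Total RNA (15 µg per culture, RNA integrity at least 9.7, per the labels) was hybridised to Affymetrix chicken arrays. The authors deposited an intensity per probe set and array on a linear scale, made with PLIER in Affymetrix Expression Console 1.1, per the submitters' processing notes. How PLIER was set and whether arrays were scaled to each other is not given in the sources used here. The intensities were taken as deposited.

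Values were transformed as log2(signal + 16). Of 37693 chicken probe sets, 28270 with a mean log2 value at or above the 25th percentile were tested. Group means over 13 arrays were fitted with limma 3.58.1 (eBayes with trend) in R 4.3.3, with 9 residual degrees of freedom, and p-values were adjusted by the Benjamini-Hochberg method over all tested probe sets, at a threshold of 0.05. Figures used Python 3.11.15 and matplotlib 3.10.9. The fit was tested on simulated arrays with known changes. Of the 83 genes 39 had more than 1 tested probe set, and 30 of the probe sets used carry a suffix for sequence shared with other transcripts.

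The genes, role classes and lists were chosen with earlier results of these data known. Named with array values were the 3 genes of smallest adjusted p in each role class and 20 genes listed by function, of which EIF4A1 and EIF5A were not analysed here. Others were named from the 6 highest and 6 lowest called changes of a comparison. Replicate numbers were not treated as pairs, since residuals of same-numbered arrays correlated at -0.293 to 0.382 over 18 pairs, with 4 of 18 over 0.1. The alternatives were centring, quantile normalization, other offsets and filters, eBayes without trend, array weights, probe set means, separate fits, a replicate block, each array left out, and stricter factors. The W-linked covariate and the joint omission of 2 arrays were chosen after seeing the data.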

Additional observations from a re-analysis of the deposited data

Results flagged for a closer look

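Contact-inhibited replicate 1 lay far from the other 3 arrays of its group for EIF2AK2 (a signal of 149.6, against 149.6, 258, 252 and 245 over the 4), EIF3J (457.9) and EIF5 (2430.5), each below the others by a gap that, on the log2(signal + 16) scale, exceeded Dixon's 95% critical share of the group's range. In this group 7 of the 83 genes showed such a gap, and chance gives about 1 in 20. This array also had the lower W-linked level given above, whose part in these values was not tested.

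The effect of serum removal differed between confluent and sparse cells for 13 genes, by limma's interaction test, near the share over all genes given above. The log2 difference was above 0 for EIF2B3 (1.15), EIF3J (1.07), EIF2S1 (0.90), EIF5 (0.87), EIF5A2 (0.85), EIF2B2 (0.65) and YARS2 (0.62). It was below 0 for EIF2AK3 (-1.37), EEF2K (-1.16, with a cycling signal under the filter), EPRS (-0.66), EIF3H (-0.51), EIF2S3 (-0.49) and EIF3F (-0.47). Other probe sets of EIF2B3 and EIF3J differed from those used here, as given above. Of the 13, 3 remained called under each alternative run for the interaction.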

How the results depend on the processing

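Of 550 recomputed values over 27 alternative settings, 456 stayed within 1.5 times the count or within the spread between arrays of the difference of medians (pooled SD 0.0848). The fall of synthetases relative to factors in contact-inhibited cells, and in confluent and starved cells, kept its sign under each setting. With arrays centred on their median, the counts became 11 higher for contact-inhibited against cycling cells, 5 higher for serum-starved against cycling, 11 higher for confluent and starved against cycling, 3 lower for serum-starved against contact-inhibited and 11 higher and 2 lower for the interaction. With quantile normalization, the counts became 7 higher for confluent and starved against contact-inhibited and 11 lower for confluent and starved against serum-starved. With an offset of 64, the difference of medians became 0.29 for serum-starved against contact-inhibited. With no filter, the counts became 3 lower for serum-starved against contact-inhibited. With eBayes without trend, the counts became 7 higher and 5 lower for serum-starved against cycling, 3 lower for serum-starved against contact-inhibited and 3 lower for the interaction. With array weights, the counts became 19 higher and 14 lower for serum-starved against cycling, 10 lower for serum-starved against contact-inhibited, 22 higher and 8 lower for confluent and starved against contact-inhibited, 6 higher and 17 lower for confluent and starved against serum-starved and 19 higher and 14 lower for the interaction and the difference of medians became -0.39 for contact-inhibited against cycling cells. With probe sets of a gene averaged, the counts became 6 higher for confluent and starved against contact-inhibited and the difference of medians became -0.36 for contact-inhibited against cycling cells and 0.19 for serum-starved against contact-inhibited. With only the compared arrays fitted, the counts became 7 higher and 2 lower for serum-starved against cycling, 2 lower for serum-starved against contact-inhibited and 1 higher and 12 lower for confluent and starved against serum-starved. With the replicate number as a block (replicate block), the counts became 4 lower for serum-starved against cycling and 2 lower for confluent and starved against serum-starved and the difference of medians became 0.48 for serum-starved against contact-inhibited. With initiation and elongation factors alone as the factors, the difference of medians became 0.070 for serum-starved against cycling and -0.27 for confluent and starved against cycling. With the W-linked level as a covariate, the counts became 1 lower for serum-starved against cycling, 8 lower for confluent and starved against cycling, 2 lower for serum-starved against contact-inhibited, 20 higher for confluent and starved against contact-inhibited, 11 lower for confluent and starved against serum-starved and 15 higher and 10 lower for the interaction and the difference of medians became 0.51 for serum-starved against contact-inhibited. Without cycling replicate 3 and contact-inhibited replicate 1, the counts became 11 lower for serum-starved against contact-inhibited, 4 higher and 14 lower for confluent and starved against serum-starved and 10 lower for the interaction and the difference of medians became -0.31 for contact-inhibited against cycling cells and -0.28 for confluent and starved against cycling. With single arrays left out, the number higher ran from 5 to 16 for serum-starved against cycling, 6 to 15 for confluent and starved against contact-inhibited, 0 to 1 for confluent and starved against serum-starved and 3 to 9 for the interaction, and the number lower from 1 to 9 for serum-starved against cycling, 1 to 7 for serum-starved against contact-inhibited, 3 to 6 for confluent and starved against contact-inhibited, 0 to 11 for confluent and starved against serum-starved and 2 to 10 for the interaction. The difference of medians then ran from -0.62 to -0.40 for contact-inhibited against cycling cells, -0.41 to -0.28 for confluent and starved against cycling, 0.33 to 0.48 for serum-starved against contact-inhibited and -0.029 to 0.14 for the interaction. The separate fit of the compared arrays was not run for the interaction, where it is the same fit. The replicate block kept the other counts within 1.5 times of those reported. Of the arrays with a same-numbered array in each other group, 4 of 12 correlated best with their own number. The cause of these shifts was not tested. Single genes near the threshold, small rises and dim probe sets are limited by 3 or 4 arrays a group, and signals near the filter carry background that the offset compresses.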
